A study of Homo sapiens with 9 samples.

Results

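Cadherins and protocadherins were described here in MDA-MB-468 breast cancer cells carrying 1 of 2 short hairpin RNAs named for LMO2 or the empty hairpin vector. The genes were taken by symbol alone: CDH, CDHR, PCDH, PCDHA, PCDHB and PCDHG genes with a number, the desmocollins and desmogleins (DSC, DSG) and FAT1 to FAT4. This gave 104 of the 56809 genes of the count table. Of these, 34 held enough counts to enter the test across all genes, 24 reached a mean over the 9 libraries of at least 1 CPM (counts scaled to a library total of 1000000), and 13 had no count in any library.

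Cadherins are membrane proteins whose extracellular repeats bind calcium and hold neighbouring cells together. Classical cadherins such as CDH1 (E-cadherin) tie this contact to actin through catenins, and desmosomal cadherins tie it to keratin filaments. The clustered protocadherins lie in 3 neighbouring arrays, alpha, beta and gamma, where each gene has a promoter of its own. In the alpha and gamma arrays each variable first exon is joined to the same constant exons, so the transcripts of an array share their 3′ part.

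MDA-MB-468 is an established human breast adenocarcinoma line of basal-like, epithelial character. Of the 9 libraries, 3 came from cells infected with pSicoR, the lentiviral vector without a hairpin (control), 3 from cells with shLMO2-1 and 3 from cells with shLMO2-2. All 9 thus share the line, the infection and the vector backbone, and the labels do not say how long after infection the 200000 cells of each library were taken or whether libraries were separate cultures. The p-values therefore measure the spread between these libraries, which may be technical.

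The libraries held between 15494468 and 23069454 estimated counts, and the cadherins and protocadherins made up 0.130% to 0.153% of them. LMO2, whose protein bridges transcription factors on DNA, was near the detection limit. It had 4, 35 and 19 counts in the control libraries, 2, 1 and 6 with shLMO2-1, and 1, 4 and 3 with shLMO2-2, so control replicate 1 lay within the range of the hairpin libraries. All 9 epithelial and basal breast markers examined were above 1 CPM, while 4 of 6 blood markers were at 0 in every library. CD68, the blood marker with most counts, was at 0.581 to 0.666 CPM in control, 1.17 to 2.14 with shLMO2-1 and 1.12 to 1.78 with shLMO2-2. Of 6 fibroblast and mural markers only COL1A1 was above 1 CPM, at 9.47 to 17.1 CPM, and of 4 neural markers only SYP, at 13.5 to 22.7 CPM. Control replicate 1 stood apart: it was the lowest or highest of all 9 libraries for 14 of the 24 genes of at least 1 CPM, against 3 to 6 for each other library. Over all 13260 genes compared, the share was 47.2% for that library and 12.3% to 28.0% for the others. Calls that begin or end without it are given with and without it, as are the fold changes of PCDH1, PCDH7 and FAT1.

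These cells expressed an epithelial set of cadherins, led by CDH1. Divided by transcript length, the mean level over all libraries was 61.2 CPM per kb for CDH1, 22.9 for the protocadherin PCDH1, 19.1 for the giant cadherin FAT1, 17.8 for DSG2 and 17.1 for CDH3 (P-cadherin). DSC3 followed at 15.3 CPM per kb, DSC2 at 14.4 and the gamma protocadherin PCDHGC3 at 11.2. PCDHGB5 stood at 7.70 CPM per kb, PCDHB2 at 6.98, CDH24 at 5.20 and PCDH7 at 5.04. Every other gene of the set was at or below 2.18 CPM per kb, the level of PCDHA11. CDH1 alone held 21.4% of the counts of the whole set, and the 7 genes with most counts held 83.4%. CDH2 (N-cadherin), the mesenchymal and neural counterpart of CDH1, had 2 counts in the 9 libraries together.

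**Figure D1:**
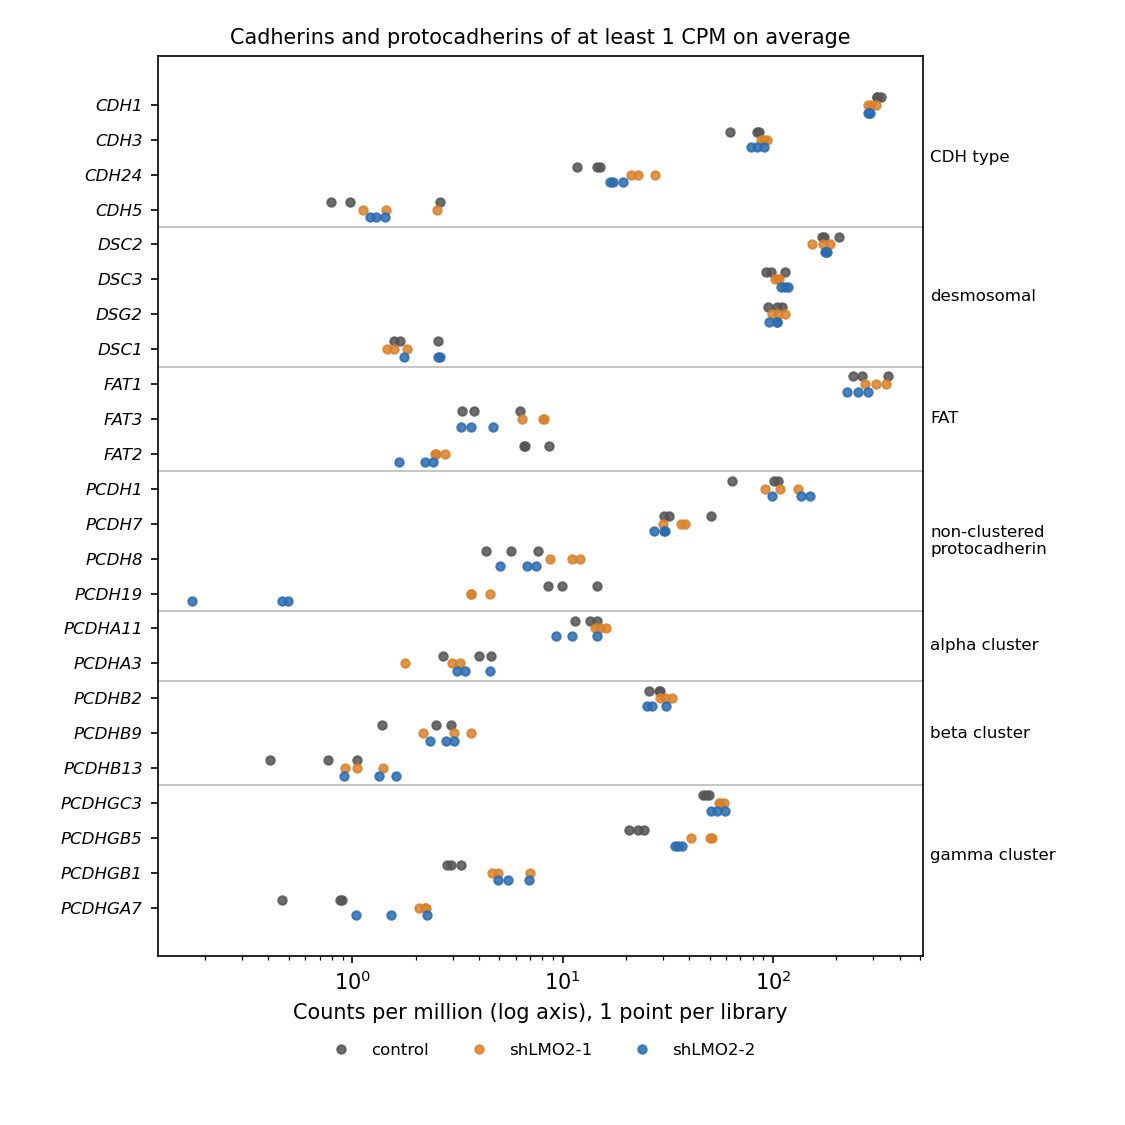
CPM on a log axis for the 24 cadherins and protocadherins of at least 1 CPM on average, 1 point per library, grouped by role and coloured by group. Most genes show overlapping colours; PCDH19 spreads from 14.7 CPM in a control library to 0.174 CPM in an shLMO2-2 library, and the 3 control points of FAT2 lie above all 6 hairpin points.

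With shLMO2-1, 8 of the 34 tested genes passed at an adjusted p under 0.05, where 8.42% of all 14709 tested genes did. PCDHGB5, CDH24, PCDH8, PCDHGB1 and PCDHGA7 rose (5 genes, beside 4.54% of all tested genes) and PCDH19, FAT2 and PCDHGA12 fell (3 genes, beside 3.88%). With shLMO2-2, 5 genes passed, against 8.97% of all tested genes: PCDHGB5 and PCDHGB1 rose, beside 4.94% of all tested genes, and PCDH19, FAT2 and PCDHGA12 fell, beside 4.04%. In the mean of both hairpins against control 8 passed, against 12.4% of all tested genes. Those were PCDHGB5, CDH24, PCDHGB1, PCDHGA7 and PCDHB14, which were higher (beside 6.47% of all tested genes), and PCDH19, FAT2 and PCDHGA12, which were lower (beside 5.93%). As shares of the 34 tested genes these counts are 23.5%, 14.7% and 23.5%.

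The median log2 fold change of the 34 genes was 0.22 with shLMO2-1 and -0.02 with shLMO2-2, beside 0.00 over all tested genes in both. Libraries of the groups did not overlap for 15 of the 34 genes with shLMO2-1, where 28.3% of all tested genes did not, and for 13 with shLMO2-2, where 29.9% did not. Both hairpins were compared with the same 3 control libraries, so a control library that is high or low moves both fold changes alike. Without control replicate 1, 6 genes passed with shLMO2-1, 5 with shLMO2-2 and 6 in the mean. The share of all tested genes that passed in that fit is not given here.

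**Figure D2:**
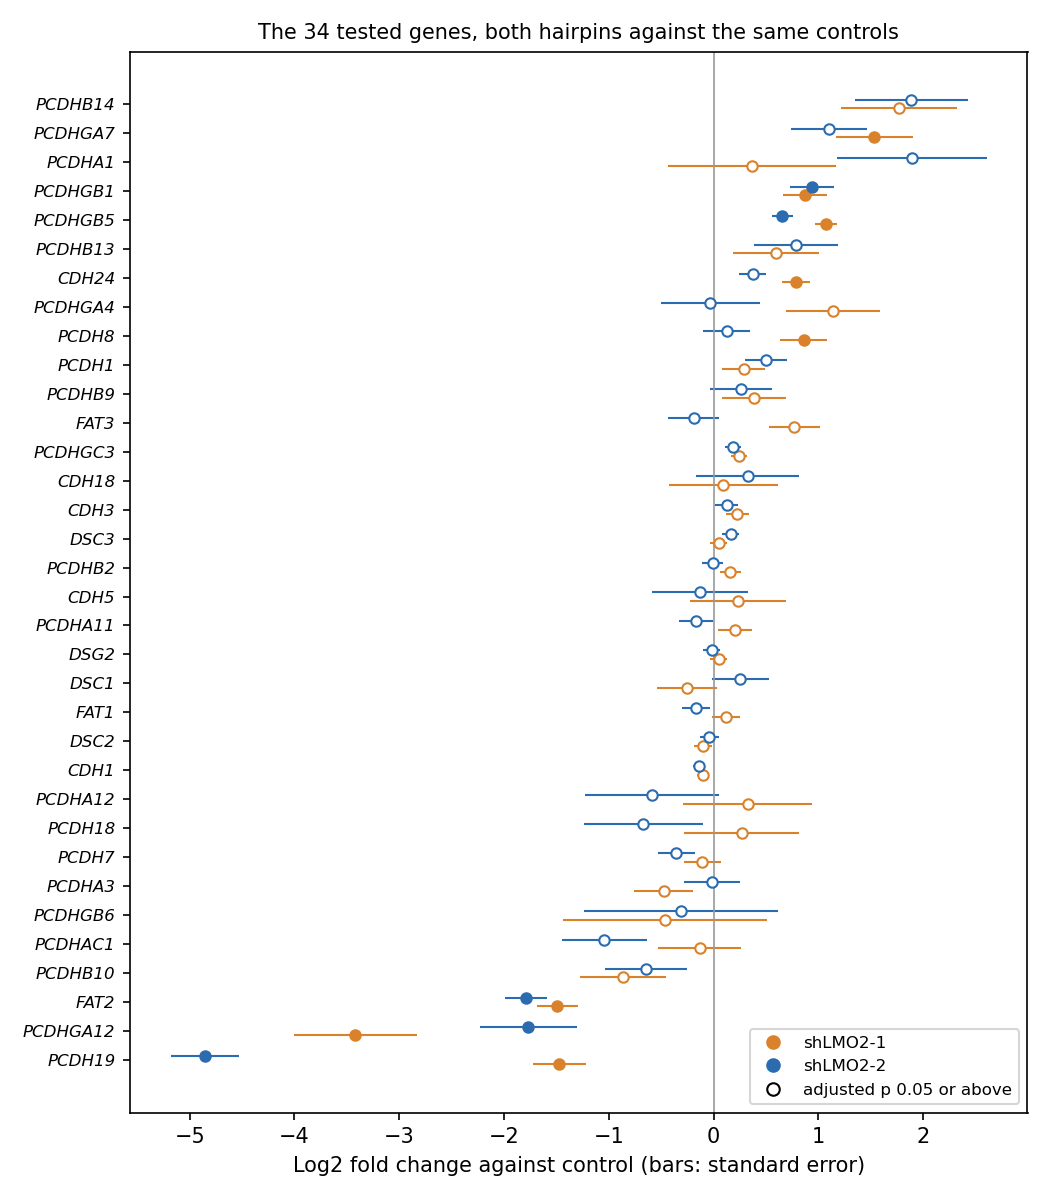
Log2 fold changes against control for the 34 tested genes, with bars of 1 standard error, orange for shLMO2-1 and blue for shLMO2-2; filled points have an adjusted p under 0.05. Most points lie near 0 and are open, and PCDH19 lies at -1.47 with shLMO2-1 and at -4.85 with shLMO2-2.

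Among the genes named CDH, the main adhesion cadherins of the epithelium did not pass the test, and CDH24 rose. CDH1, which builds the adherens junctions of breast epithelium, was measured at 326, 313 and 311 CPM in the control libraries, 294, 307 and 282 with shLMO2-1, and 282, 286 and 291 with shLMO2-2. All 6 hairpin libraries lay below all 3 controls, by a small margin. CDH1 had a log2 fold change of -0.11 (SE 0.05, adjusted p = 0.264) with shLMO2-1 and -0.14 (SE 0.05, adjusted p = 0.122) with shLMO2-2. Its mean over both hairpins was -0.12 (SE 0.05, adjusted p = 0.106), and the difference between the hairpins was -0.04 (SE 0.05, adjusted p = 0.885). With libraries scaled by their total counts alone, the mean was -0.17 and passed (adjusted p = 0.0383). CDH1 lies at chr16:68737225-68835548 on the plus strand (GENCODE 29, GRCh38, the source of all gene positions here).

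CDH3, the P-cadherin of basal and myoepithelial cells and a neighbour of CDH1 at chr16:68636189-68722616, stood at 62.1, 83.8 and 85.9 CPM in control. It stood at 87.3, 90.9 and 93.2 CPM with shLMO2-1 and at 78.9, 83.9 and 90.4 with shLMO2-2. Control replicate 1 was the lowest library, and the shLMO2-2 libraries overlapped the controls. No contrast passed: the log2 fold change was 0.23 (SE 0.11, adjusted p = 0.239) with shLMO2-1 and 0.13 (SE 0.11, adjusted p = 0.525) with shLMO2-2. Without control replicate 1 these were 0.09 and -0.02.

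CDH24 codes for a type II classical cadherin and lies at chr14:23047062-23057538 on the minus strand. It was counted at 11.7, 15.1 and 14.5 CPM in control, 22.8, 21.2 and 27.4 with shLMO2-1, and 19.3, 17.3 and 16.9 with shLMO2-2. The 3 groups did not overlap: control was lowest, shLMO2-2 intermediate and shLMO2-1 highest. With shLMO2-1 the log2 fold change was 0.79 (SE 0.13, adjusted p = 0.00520), and in the mean of both hairpins 0.58 (SE 0.11, adjusted p = 0.00933). It was 0.37 (SE 0.13, adjusted p = 0.101) with shLMO2-2, and the difference between the hairpins, -0.41 (SE 0.13, adjusted p = 0.230), did not pass.

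CDH5, the VE-cadherin of endothelial cells at chr16:66366622-66404786, was near 1 CPM. Its counts were 45, 19 and 15 in the control libraries, 20, 43 and 22 with shLMO2-1, and 30, 31 and 27 with shLMO2-2. The groups overlapped fully, with control replicate 1 and shLMO2-1 replicate 2 highest. CDH5 had a log2 fold change of 0.23 (SE 0.46, adjusted p = 0.810) with shLMO2-1 and -0.13 (SE 0.46, adjusted p = 0.893) with shLMO2-2, and 0.93 and 0.57 without control replicate 1, none past the threshold. Of the 7 endothelial markers examined, CDH5 among them, 3 were at 1 CPM or more, and their summed level was 7.22 to 14.1 CPM in control, 13.8 to 19.6 with shLMO2-1 and 8.93 to 11.5 with shLMO2-2. KDR led this sum, while CLDN5 and ERG stayed at or below 0.174 and 0.314 CPM, and any part of such cells in the CDH5 values was not tested.

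None of the 4 tested desmosomal cadherins passed in any contrast. DSC2, found in desmosomes of most epithelia, stood at 205, 175 and 172 CPM in control, 187, 173 and 153 with shLMO2-1, and 179, 180 and 177 with shLMO2-2. The ranges overlapped, and log2 fold changes of -0.10 (SE 0.09, adjusted p = 0.518) and -0.04 (SE 0.09, adjusted p = 0.819) were obtained. DSG2, its desmoglein counterpart, stood at 111, 94.4 and 104 CPM, 106, 114 and 99.4 CPM, and 105, 104 and 95.9 CPM in the same order of groups. Again the ranges overlapped, with log2 fold changes of 0.05 (SE 0.08, adjusted p = 0.774) and -0.02 (SE 0.08, adjusted p = 0.906). DSC3, known from the basal layers of stratified epithelia, had group means of 102 ± 11.4, 105 ± 2.13 and 114 ± 4.41 CPM (SD, n = 3). Its log2 fold change with shLMO2-2 was 0.16 (SE 0.08, adjusted p = 0.239), and without control replicate 1, which was its highest control library, 0.25 (adjusted p = 0.0377). DSC1 ranged from 1.46 to 2.60 CPM over all libraries.

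FAT2 fell with both hairpins. This giant atypical cadherin of epithelial cells, known for its part in collective migration, lies at chr5:151504093-151568944 on the minus strand, where AC011337.1 and MIR6499 overlap it. It was counted at 8.63, 6.61 and 6.55 CPM in control, 2.47, 2.75 and 2.50 with shLMO2-1, and 2.22, 2.41 and 1.66 with shLMO2-2. Every hairpin library lay below every control library, and the shLMO2-2 libraries were slightly below those of shLMO2-1. FAT2 had a log2 fold change of -1.49 (SE 0.20, adjusted p = 0.00153) with shLMO2-1 and -1.79 (SE 0.20, adjusted p = 0.000560) with shLMO2-2. The difference between the hairpins was -0.30 (SE 0.21, adjusted p = 0.718).

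FAT1, the most abundant FAT gene per kb, did not pass, with means of 286 ± 58.0 CPM in control, 310 ± 36.0 with shLMO2-1 and 254 ± 28.7 with shLMO2-2 (SD, n = 3). Its log2 fold change was 0.12 with shLMO2-1 and -0.17 with shLMO2-2, and 0.29 and -0.0013 without control replicate 1. FAT3, studied mainly in neurons, stood at 6.25, 3.79 and 3.33 CPM in control, 8.20, 6.44 and 8.10 with shLMO2-1, and 3.30, 4.68 and 3.68 with shLMO2-2. All 3 shLMO2-1 libraries were above the other 6. The log2 fold change of 0.77 (SE 0.24, adjusted p = 0.0738) with shLMO2-1 did not pass in edgeR with the filter on low counts. It passed by DESeq2 (0.77, adjusted p = 0.0351), without the filter (0.77, adjusted p = 0.0110) and without control replicate 1 (1.08, adjusted p = 0.0105). With shLMO2-2 it was -0.19, and 0.12 without that library, neither past the threshold. FAT4 was under 1 CPM and was not tested.

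PCDH19 showed the largest fall among the tested cadherins and protocadherins with shLMO2-2, and the only difference between the 2 hairpins that passed. It codes for a delta protocadherin, studied mainly in the developing brain, and lies at chrX:100291644-100410273 on the minus strand. Its level was 14.7, 8.50 and 9.93 CPM in control, 4.50, 3.69 and 3.69 with shLMO2-1, and 0.174, 0.464 and 0.494 with shLMO2-2. The 3 groups did not overlap, and the order was control, shLMO2-1, shLMO2-2 from highest to lowest. In bulk RNA, fewer cells that express a gene and less of its RNA per cell cannot be told apart.

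The summed counts behind these values were 607 in control, 199 with shLMO2-1 and 25 with shLMO2-2. Against control, the depth-scaled count ratio was 0.365 with shLMO2-1 (95% exact interval 0.309 to 0.429) and 0.0343 with shLMO2-2 (0.0220 to 0.0512); these intervals cover counting error only. The log2 fold change was -1.47 (SE 0.25, adjusted p = 0.00608) with shLMO2-1 and -4.85 (SE 0.33, adjusted p = 2.43e-05) with shLMO2-2. In the mean of both it was -3.16 (SE 0.23, adjusted p = 2.25e-05). The difference, shLMO2-2 minus shLMO2-1, was -3.38 (SE 0.35, adjusted p = 0.00117). Control replicate 1 was the highest library. Without it the log2 fold changes against control were -1.22 and -4.60, and both passed.

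The 250 bases before the RefSeq start of PCDH19 (GRCh38.p14, chrX:100410274-100410523, minus strand) are shown because this gene changed most. Capitals mark the single match to CANNTG, the E-box letters that proteins of LMO2-containing complexes can bind. The window has no match to GATAA, the letters read by GATA factors, which such complexes can also hold.
PCDH19: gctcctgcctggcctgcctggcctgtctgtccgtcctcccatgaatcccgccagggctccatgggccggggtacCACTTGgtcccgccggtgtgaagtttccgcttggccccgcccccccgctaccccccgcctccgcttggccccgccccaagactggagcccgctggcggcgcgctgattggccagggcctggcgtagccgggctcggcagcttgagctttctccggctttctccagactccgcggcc
The match starts 176 bases before the start. Of all 35116 such windows, 61.8% hold CANNTG on either strand (the letters allow both strands at once) and 20.4% hold GATAA, so the match is a description of the sequence and says nothing about binding.

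Over the 9 libraries, the pattern of PCDH19 on the log2 CPM scale was most like that of 5 genes out of 11030 compared, as a description. These were UBE3C (Pearson r = 0.989), ARSD (0.983), PHF6 (0.983), PRKAA1 (0.968) and GALNS (0.963), each highest in control and lowest with shLMO2-2. The points share their groups and libraries, and the spans differed widely: UBE3C went from 98.8 ± 3.22 CPM in control through 92.5 ± 1.91 to 81.6 ± 2.26 with shLMO2-2 (SD, n = 3).

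**Figure D3:**
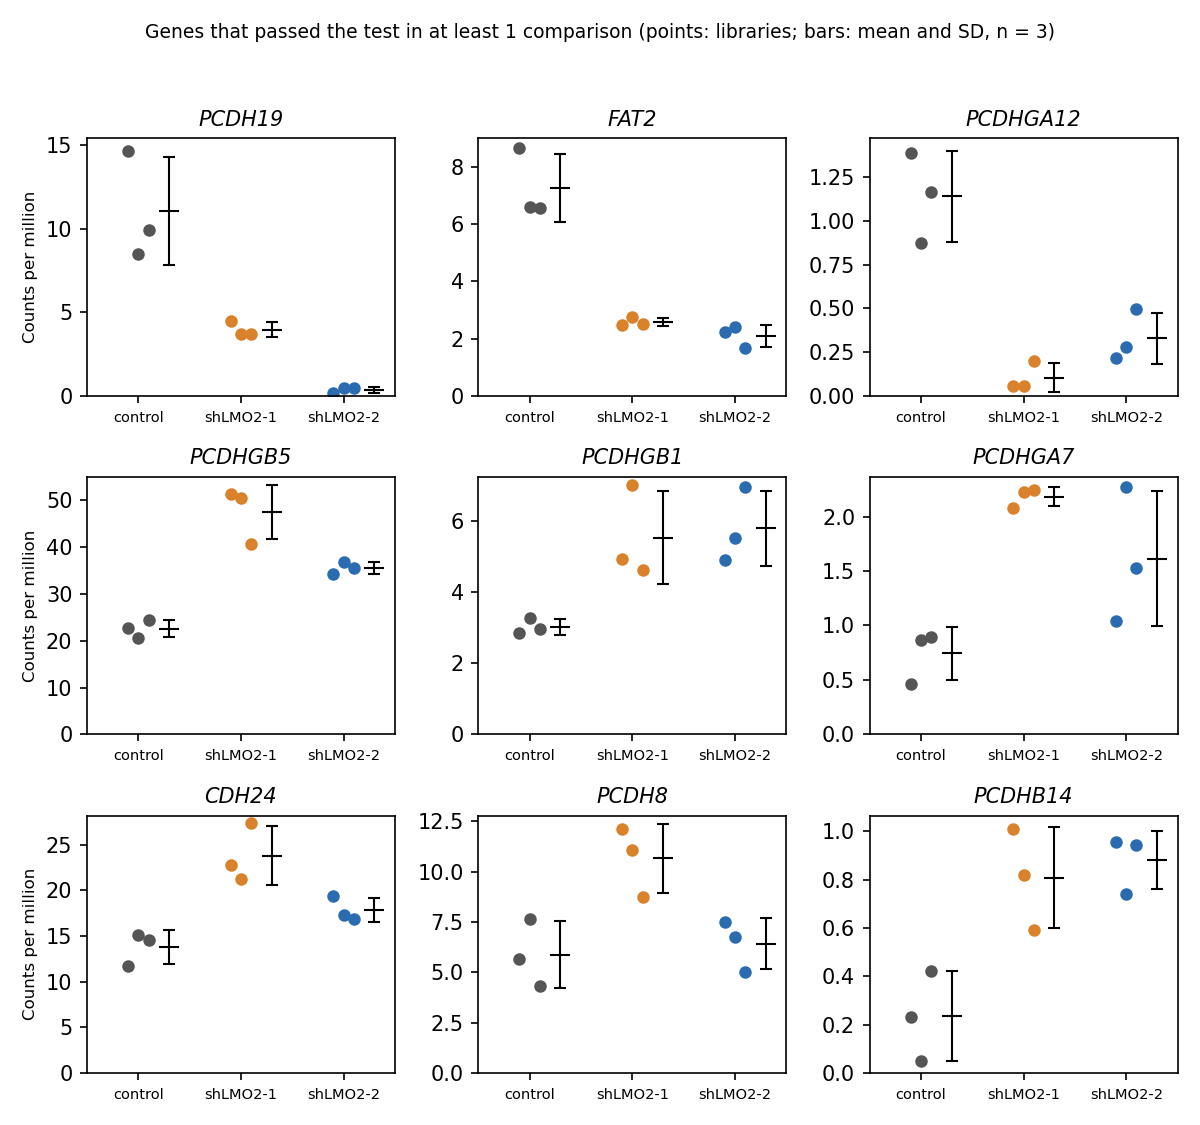
CPM in each library for the 9 genes that passed the test in at least 1 comparison, from 0, with horizontal bars at the mean and vertical bars of 1 SD (n = 3 libraries per group). PCDH19, FAT2 and PCDHGA12 are highest in the 3 control libraries, and the shLMO2-2 points of PCDH19, 0.174 to 0.494 CPM, lie below its shLMO2-1 points, 3.69 to 4.50 CPM.

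PCDH8, another delta protocadherin, first described in the early embryo, rose with shLMO2-1. It lies at chr13:52842889-52848641 on the minus strand and stood at 5.68, 7.63 and 4.33 CPM in control, 12.1, 11.1 and 8.76 with shLMO2-1, and 7.47, 6.77 and 5.03 with shLMO2-2. The shLMO2-1 libraries were all above the other 6, while the shLMO2-2 libraries lay within the control range. Its change with shLMO2-1 was 0.86 on the log2 scale (SE 0.22, adjusted p = 0.0381), and with shLMO2-2 0.13 (SE 0.22, adjusted p = 0.775). The difference between the hairpins, -0.73 (SE 0.22, adjusted p = 0.210), did not pass, but did without the filter on low counts (adjusted p = 0.0136). PCDH8 no longer passed with shLMO2-1 when control replicate 1 was left out (0.83, adjusted p = 0.0648). The same held without control replicate 3, without any of the 3 shLMO2-1 libraries and without shLMO2-2 replicate 2, where adjusted p lay between 0.0521 and 0.12. This call was also lost when only the groups compared were fitted (adjusted p = 0.0632).

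The other non-clustered protocadherins above 1 CPM did not pass in the fit used throughout. PCDH1, a delta protocadherin of epithelia such as the airway, stood at 63.9, 101 and 106 CPM in control, 91.8, 108 and 132 with shLMO2-1, and 99.0, 136 and 149 with shLMO2-2. The groups overlapped, and replicate 1 was the lowest library in each. Its log2 fold change was 0.28 (SE 0.20, adjusted p = 0.434) with shLMO2-1 and 0.50 (SE 0.20, adjusted p = 0.151) with shLMO2-2, and 0.081 and 0.29 without control replicate 1. Without the filter on low counts PCDH1 passed with shLMO2-2 (0.50, adjusted p = 7.65e-05) and in the mean. Its fold change was nearly the same in both fits, and the filter does not remove a gene of 1103 to 3326 counts per library. The fit without the filter adds genes of few counts to the spread estimate shared by all genes. The cause of the lower adjusted p was not tested. PCDH7, of the same subfamily, ranged from 27.2 to 51.0 CPM, with its highest value in control replicate 1. Its log2 fold change was -0.11 with shLMO2-1 and -0.36 with shLMO2-2, and 0.16 and -0.090 without that library; without the filter the shLMO2-2 value passed (-0.35, adjusted p = 0.0435). PCDH18 was tested at a mean of 0.706 CPM and did not pass, and PCDH9, PCDH10, PCDH15 and PCDH17 had no count in any library.

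PCDH20 was too low for the filter, passed with shLMO2-2 when no filter was used (adjusted p = 0.00149), and was picked out here after its counts were seen. It had 7, 15 and 6 counts in control, 3, 1 and 1 with shLMO2-1, and none in the 3 shLMO2-2 libraries. A count of 0 in those libraries allows up to 0.130 to 0.138 CPM.

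The gamma cluster on chromosome 5 held 4 of the 9 genes that passed: PCDHGB5, PCDHGB1 and PCDHGA7 rose and PCDHGA12 fell. Of its 22 genes, 7 were tested. Against control, 4 of these passed with shLMO2-1, 3 with shLMO2-2 and 4 in the mean, beside 8.42%, 8.97% and 12.4% of all tested genes. PCDHGA4 (log2 fold change 1.14 with shLMO2-1, -0.03 with shLMO2-2), PCDHGB6 (-0.46, -0.31) and PCDHGC3 did not pass. The 22 gamma genes start at separate promoters over 159 kb of the plus strand, and they end at position 141512979, apart from PCDHGA1 at 141512981. Between 45.9% and 47.6% of the exon bases of the main transcripts of PCDHGB1, PCDHGA7, PCDHGB5, PCDHGA12 and PCDHGC3 are shared with other genes of the cluster. Of the values above 0 in the gamma cluster, 78.8% were not whole numbers (more than 0.01 from one), against 5.60% for the 50 unclustered genes and 20.9% for all genes of the table, as a program that divides reads between genes gives, and the split among these genes is uncertain. PCDHGB1, PCDHGA7, PCDHGB5 and PCDHGC3, the 4 gamma genes above 1 CPM, are shown by their RefSeq promoter windows (250 bases, GRCh38.p14, plus strand), since each gene is transcribed from its own window. Capitals mark GCCGCTGT, the 8-letter word shared by the largest number of gamma windows, and GATAA on either strand (TTATC where it lies on the other strand).
PCDHGB1 (chr5:141349849-141350098): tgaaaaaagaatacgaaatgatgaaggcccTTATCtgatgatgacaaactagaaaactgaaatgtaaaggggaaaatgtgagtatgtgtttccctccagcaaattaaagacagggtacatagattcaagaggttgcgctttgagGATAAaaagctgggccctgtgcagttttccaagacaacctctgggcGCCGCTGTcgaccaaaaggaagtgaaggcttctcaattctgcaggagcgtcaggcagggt
PCDHGA7 (chr5:141382492-141382741): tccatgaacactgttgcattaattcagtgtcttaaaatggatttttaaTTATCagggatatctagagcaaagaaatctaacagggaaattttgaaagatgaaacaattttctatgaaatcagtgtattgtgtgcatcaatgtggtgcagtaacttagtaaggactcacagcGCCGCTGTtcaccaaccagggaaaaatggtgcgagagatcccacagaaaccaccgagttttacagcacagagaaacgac
PCDHGB5 (chr5:141397697-141397946): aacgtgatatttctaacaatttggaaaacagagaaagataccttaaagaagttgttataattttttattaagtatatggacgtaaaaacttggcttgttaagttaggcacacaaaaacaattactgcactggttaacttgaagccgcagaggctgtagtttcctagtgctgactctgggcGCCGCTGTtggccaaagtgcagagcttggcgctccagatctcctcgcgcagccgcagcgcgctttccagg
PCDHGC3 (chr5:141475716-141475965): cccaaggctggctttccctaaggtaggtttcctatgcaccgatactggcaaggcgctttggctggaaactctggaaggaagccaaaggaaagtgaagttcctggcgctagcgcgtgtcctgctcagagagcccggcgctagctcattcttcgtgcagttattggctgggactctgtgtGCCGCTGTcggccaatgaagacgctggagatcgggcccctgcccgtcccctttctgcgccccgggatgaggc
The word starts 60 bases before the start of PCDHGB1, 79 before PCDHGA7, 70 before PCDHGB5 and 72 before PCDHGC3. It contains CGCT, the core letters of the element known to be conserved in clustered protocadherin promoters.

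GCCGCTGT was found by searching these windows, so its frequency is a description. It occurred in 11 of the 20 gamma genes with a RefSeq entry, in none of 13 alpha, 14 beta and 33 unclustered genes, and in 1.233% of all windows. GATAA occurred in 10 of the 20 gamma windows, beside 20.4% of all windows. It also occurred in 7 of the 14 beta, 3 of the 13 alpha and 6 of the 33 unclustered genes. There was a pair of matches before PCDHGB1, 1 before PCDHGA7 and none before PCDHGB5 or PCDHGC3. CANNTG occurred in 9 of the 20, beside 61.8% of all windows, and in none of these 4. Searches covered both strands, and PCDHGA12 is named without a sequence.

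PCDHGB5 rose with both hairpins and had the lowest adjusted p of the gamma genes. It was counted at 22.8, 20.6 and 24.3 CPM in control, 51.3, 50.5 and 40.8 with shLMO2-1, and 34.3, 36.9 and 35.6 with shLMO2-2. The 3 groups did not overlap, with control lowest and shLMO2-1 highest. Tested against control, PCDHGB5 rose by 1.07 on the log2 scale (SE 0.10, adjusted p = 0.000230) with shLMO2-1 and by 0.66 (SE 0.10, adjusted p = 0.00387) with shLMO2-2. The difference between the hairpins, -0.42 (SE 0.10, adjusted p = 0.108), did not pass, but it did by DESeq2 (adjusted p = 0.0150), without the filter on low counts (adjusted p = 0.0180) and without shLMO2-1 replicate 3, the lowest library of its group (-0.52, adjusted p = 0.0465).

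PCDHGB1 was lower in level, at 2.84, 3.28 and 2.96 CPM in control, 4.95, 7.03 and 4.61 with shLMO2-1, and 4.91, 5.52 and 6.96 with shLMO2-2. Every hairpin library was above every control library, and the hairpin groups overlapped. PCDHGB1 had a log2 fold change of 0.87 (SE 0.21, adjusted p = 0.0303) with shLMO2-1 and of 0.94 (SE 0.21, adjusted p = 0.0208) with shLMO2-2. Their difference was 0.07 (SE 0.20, adjusted p = 0.955). The shLMO2-1 call ended without any of the 3 control libraries, shLMO2-1 replicate 1 or 2, or shLMO2-2 replicate 2 (adjusted p 0.0525 to 0.117). It also ended when only the groups compared were fitted (adjusted p = 0.0577). Without control replicate 1 the shLMO2-1 value was 0.82 (adjusted p = 0.0567). The call with shLMO2-2 was lost without control replicate 3 or shLMO2-2 replicate 2 or 3 (adjusted p 0.0622 to 0.0865). The mean of both, 0.90 (SE 0.19, adjusted p = 0.0115), passed without any library in turn.

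PCDHGA7 stood at 0.463, 0.871 and 0.898 CPM in control, 2.08, 2.23 and 2.24 with shLMO2-1, and 1.04, 2.27 and 1.53 with shLMO2-2. These are 42, 109 and 107 counts per group, and no hairpin library overlapped the controls. The log2 fold change was 1.53 (SE 0.36, adjusted p = 0.0276) with shLMO2-1, 1.10 (SE 0.36, adjusted p = 0.0877) with shLMO2-2 and 1.32 (SE 0.33, adjusted p = 0.0254) in their mean. The call with shLMO2-1 was lost without any 1 of the 6 libraries compared (adjusted p 0.0540 to 0.0826). The call for the mean was lost without any control library, shLMO2-1 replicate 2 or shLMO2-2 replicate 2 (adjusted p 0.0505 to 0.0768). When control replicate 1 was left out, the values were 1.29 (adjusted p = 0.0597) with shLMO2-1 and 1.07 (adjusted p = 0.0768) in the mean.

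PCDHGA12 fell, from 24, 17 and 22 counts in the control libraries to 1, 1 and 3 with shLMO2-1 and 5, 6 and 11 with shLMO2-2. In CPM this was 1.39, 0.871 and 1.16, then 0.0562, 0.0586 and 0.198, then 0.217, 0.278 and 0.494. All hairpin libraries lay below all controls, with shLMO2-1 lowest. The depth-scaled count ratio was 0.0884 with shLMO2-1 (95% exact interval 0.0277 to 0.217) and 0.291 with shLMO2-2 (0.171 to 0.480). The log2 fold change was -3.42 (SE 0.59, adjusted p = 0.00615) with shLMO2-1 and -1.77 (SE 0.46, adjusted p = 0.0385) with shLMO2-2, with a difference of 1.65 (SE 0.66, adjusted p = 0.387). The shLMO2-2 call was lost without any 1 of the 3 control or 3 shLMO2-2 libraries, or without shLMO2-1 replicate 1 or 2 (adjusted p 0.0537 to 0.131), and the shLMO2-1 call was not. The shLMO2-2 call was also lost without the filter on low counts (adjusted p = 0.0582). The same held when only the groups compared were fitted (adjusted p = 0.0511). Without control replicate 1 the shLMO2-2 value was -1.61 (adjusted p = 0.106). The variable exon of PCDHGA12 starts at position 141430589, farther along the array than those of the 3 genes that rose and before that of PCDHGC3.

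PCDHGC3, the C-type gamma gene that is read widely outside the nervous system, held most of the cluster's counts. It stood at 49.8, 46.3 and 47.9 CPM in control, 58.7, 55.8 and 55.5 with shLMO2-1, and 59.0, 50.7 and 54.1 with shLMO2-2. All 6 hairpin libraries lay above the 3 controls, and the change did not pass: 0.24 (SE 0.07, adjusted p = 0.0720), 0.19 (SE 0.07, adjusted p = 0.143) and 0.21 (SE 0.06, adjusted p = 0.0537) for shLMO2-1, shLMO2-2 and their mean. DESeq2 called it with shLMO2-1 (adjusted p = 0.0459) and in the mean (adjusted p = 0.0319).

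Because reads can move between genes with shared exons, the clusters were also summed, as values without a test. The gamma sum was 81.0, 74.5 and 79.0 CPM in control, 121, 119 and 108 with shLMO2-1, and 101, 98.7 and 101 with shLMO2-2. All hairpin libraries were above all controls, by 1.49 and 1.28 times on average. With libraries scaled by total counts alone, these ratios were 1.45 and 1.24. Without PCDHGB5 the sum was 55.6 ± 2.32 CPM in control, 68.6 ± 1.47 with shLMO2-1 and 64.7 ± 2.68 with shLMO2-2 (SD, n = 3). All hairpin libraries still lay above all controls. The hairpin groups nearly touched, with shLMO2-1 at 67.2 CPM or more and shLMO2-2 at 67.1 CPM or less. Within the cluster PCDHGC3 went from 61.4% of the sum in control to 48.9% with shLMO2-1 and 54.4% with shLMO2-2, while PCDHGB5 went from 28.9% to 40.8% and 35.5%.

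**Figure D4:**
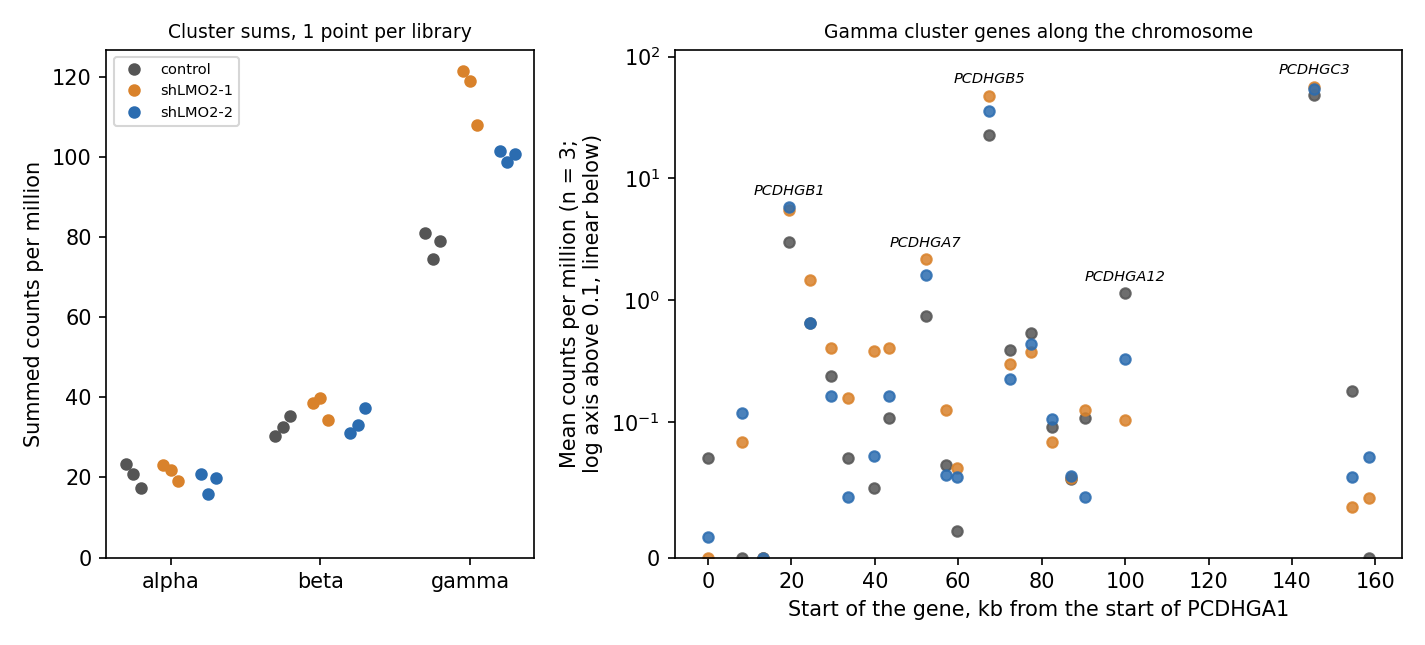
Left, summed CPM of the alpha, beta and gamma clusters, 1 point per library; right, mean CPM (n = 3 libraries) of each gamma gene against the distance of its start from that of PCDHGA1, on an axis that is logarithmic above 0.1 and linear below. The gamma sums of the hairpin libraries, 98.7 to 121, lie above those of the controls, 74.5 to 81.0. Among the labelled genes, only PCDHGA12 has its control point above its own hairpin points.

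The alpha and beta sums overlapped between groups. The alpha cluster summed to 20.6 ± 3.08 CPM in control, 21.3 ± 1.97 with shLMO2-1 and 18.8 ± 2.67 with shLMO2-2, and none of its 5 tested genes passed. Without the filter on low counts, PCDHA1 passed with shLMO2-2 (1.90, adjusted p = 0.00796) and PCDHA10 in the mean (-2.11, adjusted p = 0.0318). PCDHA11, the alpha gene with most counts, ranged from 9.32 to 16.1 CPM over all libraries and PCDHA3 from 1.78 to 4.58. The beta cluster, whose genes share no constant exons, summed to 32.8 ± 2.47, 37.5 ± 2.89 and 33.8 ± 3.24 CPM (SD, n = 3). Of its values above 0, 49.0% were not whole numbers by the same tolerance, beside the 20.9% of all genes, and the split of counts among its similar genes is uncertain too.

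PCDHB14 was the only beta gene that passed, in the mean of both hairpins. It lies at chr5:141222932-141227759 and had 4, 1 and 8 counts in control, 18, 14 and 9 with shLMO2-1, and 22, 16 and 21 with shLMO2-2. Every hairpin library lay above every control in counts and in CPM. The log2 fold change was 1.77 (SE 0.56, adjusted p = 0.0756) with shLMO2-1, 1.88 (SE 0.54, adjusted p = 0.0540) with shLMO2-2 and 1.83 (SE 0.50, adjusted p = 0.0355) in their mean. Leaving out any 1 library other than control replicate 3 ended the call in the mean, with adjusted p from 0.0512 to 0.0976. Without control replicate 1 PCDHB14 had 1.81 in the mean (adjusted p = 0.0883). With shLMO2-2 alone it passed by DESeq2 (adjusted p = 0.0333), by limma-voom (adjusted p = 0.0393) and without the filter (adjusted p = 0.0324). PCDHB2, the most abundant beta gene per kb, had means of 27.8 ± 1.80, 31.0 ± 2.09 and 27.6 ± 3.04 CPM and did not pass, nor did PCDHB9 or PCDHB13.

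When the hairpins were compared with each other, PCDH19 was the only 1 of the 34 genes that passed, where 0.768% of all tested genes did; it was lower with shLMO2-2, as were 0.422% of them. Libraries of shLMO2-1 and shLMO2-2 did not overlap for 10 of the 34 genes, against 18.1% of all tested genes. These included CDH24, PCDHGB5, PCDH8 and FAT3, all higher with shLMO2-1, for which the test of the difference did not pass. DSC3, PCDHA1 and PCDHGA12 went the other way, higher with shLMO2-2, and the difference did not pass for them either. For FAT3 that difference was -0.96 (SE 0.24, adjusted p = 0.119) with all libraries. It passed at -0.96 when control replicate 1 was left out of the shared estimate of spread (adjusted p = 0.0237), by DESeq2 (0.0179), without the filter (0.00254) and when only the 2 hairpin groups were fitted (0.0392).

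As among all tested genes, most binding partners of cadherins did not pass. Of 24 tested cytoplasmic junction genes (catenins, plakins, plakophilins and actin linkers), 2 rose and none fell with shLMO2-1. Of all tested genes, 4.54% rose and 3.88% fell with that hairpin. None of the 24 passed with shLMO2-2, where 8.97% of all tested genes did. CTNNAL1, a relative of alpha-catenin, went from 12.8 ± 2.02 CPM in control to 21.0 ± 1.87 with shLMO2-1 (log2 fold change 0.72, SE 0.13, adjusted p = 0.00829) and 13.0 ± 0.901 with shLMO2-2 (SD, n = 3). The difference between the hairpins passed, at -0.70 (SE 0.13, adjusted p = 0.0362). ACTN1, an actin cross-linker, went from 564 ± 9.15 to 665 ± 15.4 and 608 ± 9.96 CPM and passed with shLMO2-1 (0.24, SE 0.05, adjusted p = 0.0119) and in the mean. The median log2 fold change of the 24 genes was 0.03 with each hairpin.

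Among 8 tested genes with cadherin repeats outside the symbol rule, 2 rose with shLMO2-1 and 1 with shLMO2-2, beside 4.54% and 4.94% of all tested genes. In the mean of both hairpins 3 were higher, beside 6.47% of all tested genes. CLSTN2 and CLSTN1 code for calsyntenins, which carry a pair of cadherin repeats and are known from synapses and vesicle transport. CLSTN2 stood at 11.4, 9.42 and 10.4 CPM in control, 17.7, 18.2 and 15.2 with shLMO2-1, and 15.7, 15.3 and 16.1 with shLMO2-2. All hairpin libraries were above all controls, with log2 fold changes of 0.71 (SE 0.11, adjusted p = 0.00406) and 0.59 (SE 0.11, adjusted p = 0.00971). CLSTN1 went from 103 ± 4.94 to 135 ± 2.59 and 116 ± 4.57 CPM and passed with shLMO2-1 (0.39, SE 0.06, adjusted p = 0.00390) but not with shLMO2-2 (0.18, SE 0.06, adjusted p = 0.102).

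Of 29 tested genes for shedding, trafficking and promoter control of cadherins and protocadherins, including ADAM10, gamma-secretase, CTCF and cohesin, none passed with shLMO2-1 and 1 fell with shLMO2-2, where 3.88% and 4.04% of all tested genes fell. That gene was STAG1, a cohesin subunit, at 148 ± 7.60 CPM in control, 129 ± 10.5 with shLMO2-1 and 118 ± 7.33 with shLMO2-2 (SD, n = 3). Its log2 fold change was -0.20 (SE 0.08, adjusted p = 0.144) with shLMO2-1 and -0.32 (SE 0.08, adjusted p = 0.0285) with shLMO2-2. In the mean of both hairpins it was -0.26 (SE 0.07, adjusted p = 0.0281). STAG1 was the only listed gene that passed in the mean, beside 12.4% of all tested genes. The median log2 fold change of the 29 genes was -0.03 and -0.05.

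The remaining 80 genes of the set were below 1 CPM on average. Of these, 10 were tested, 57 had counts but too few to test, and 13 had none. The 13 were CDH6, CDH7, CDH8, CDH9, CDH10, CDH19, CDHR4, DSG4, PCDH9, PCDH10, PCDH15, PCDH17 and PCDHGA3, for which a count of 0 allows up to 0.130 to 0.194 CPM depending on the library. None of the 5 cadherin-related CDHR genes, studied mainly in gut and retina, was tested.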

How the data were processed

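Bulk RNA-seq of polyadenylated RNA was used from 9 MDA-MB-468 libraries, grouped by the plasmid in the labels. The authors deposited estimated counts per gene symbol in 1 table; per the submitters' processing notes, Salmon 0.12, DESeq2 1.22.2 and GRCh38.p12 were used, with no role given. Whether counting used strand is not given in the sources used here, so overlapping genes are uncertain. Symbols were matched to GENCODE 29 (GRCh38), where all 56809 were found, for positions and transcript lengths, and to RefSeq (GRCh38.p14) for promoter windows, where 80 of the 104 genes had an entry.

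Counts were rounded and tested in edgeR 4.0.16 (R 4.3.3) by the quasi-likelihood F-test, with TMM scaling, filterByExpr (minimum count 10, minimum total 15; LMO2 kept) and a factor of 3 groups over all 9 libraries. This tested 14709 genes. P-values were adjusted by Benjamini-Hochberg over all of them, and called under 0.05. Depth was 15494468 to 23069454 counts. A count of 0 was read as up to 3 counts. No library pair within a group agreed within sampling noise (chi-square per gene 5.04 to 27.7). Alternatives were other scalings, no filter, DESeq2 1.42.0, limma-voom 3.58.1, only the groups compared, the replicate number as a block, and leaving out each library.

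The genes and lists were chosen with earlier results of these data known. Genes of at least 1 CPM on average were named, and genes called in any contrast, CDH1, CDH2, CDH3, CDH5, DSG2, DSC2 and PCDH19 were given in full. Of the partner lists, genes called in at least 2 contrasts were named. The 5 genes most like PCDH19 were those with the highest Pearson r of log2 CPM (prior count 2) among genes of at least 5 CPM.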

Additional observations from a re-analysis of the deposited data

Results flagged for a closer look

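PCDH19 was set apart because its 2 hairpin groups differed by a test of the difference itself: both fell against the same controls, and shLMO2-2 minus shLMO2-1 was -3.38 on the log2 scale (SE 0.35, adjusted p = 0.00117, edgeR's quasi-likelihood test with Benjamini-Hochberg adjustment). All 3 shLMO2-2 libraries, at 4, 10 and 11 counts, lay below all 3 shLMO2-1 libraries, at 80, 63 and 56. The difference passed in all 16 alternatives, with log2 values from -3.63 to -3.04.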

How the results depend on the processing

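Of the 22 calls (a gene in a comparison), 297 of 343 repeats under another setting kept the call and none changed direction. PCDH19, FAT2 and PCDHGB5 kept theirs in every repeat, as did CDH24 with shLMO2-1 and in the mean. DESeq2 gave no adjusted p for PCDHGA12 with shLMO2-1. Without the filter on low counts, 9 genes passed with shLMO2-2 and 4 between the hairpins; between the hairpins, 3 passed by DESeq2 and 2 when only those groups were fitted. The fit of only the groups compared cannot give the mean of both hairpins. Leaving out 1 library gave 5 to 8 calls with shLMO2-1, 3 to 5 with shLMO2-2, 6 to 7 in the mean and 1 to 2 between the hairpins. The share of all tested genes that passed under each alternative is not given here, so these counts cannot be read as particular to this set. Without the filter, genes of few counts also enter the spread estimate shared by all genes. Fold changes of FAT3, PCDH1, PCDH7, PCDH8 and PCDHGB5 then barely moved while their adjusted p fell. Other genes went the other way. The adjusted p of CDH1 rose, to 0.592 with shLMO2-1 and 0.375 with shLMO2-2. PCDHGA12 lost its shLMO2-2 call (adjusted p = 0.0582). The causes were not tested.

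The labels give same-numbered libraries a number and do not say what else they share. After removal of group means, same-numbered pairs correlated at 0.519 to 0.623 for number 1 and at 0.427 to 0.558 for number 3. For number 2 the range was -0.182 to 0.0283, and pairs of different numbers ran from -0.666 to 0.539. Of the 9 libraries, 6 correlated best with their own number. With the replicate number as a block, 11, 7 and 11 genes passed with shLMO2-1, shLMO2-2 and in the mean, and 2 between the hairpins. The share of all tested genes that passed with the block is not given here. The rise in these counts therefore cannot be read as particular to this set. PCDH1 then passed with shLMO2-1 (0.30, adjusted p = 0.0213), with shLMO2-2 (0.51, adjusted p = 0.00128) and in the mean (0.41, adjusted p = 0.00179). FAT3 and PCDHGC3 also passed with shLMO2-1, PCDHB14 with shLMO2-2, PCDHGC3 and PCDH8 in the mean, and PCDH8 between the hairpins.

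Among the genes given in full, the 27 changes of direction all concerned comparisons in which the gene did not pass. CDH5 with shLMO2-2 was 0.077 by limma-voom, and DSG2 in the mean was -0.030 under total-count scaling. The others came from leaving out 1 library. CDH3 with shLMO2-2 then ran from -0.016 to 0.21. CDH5 ran from -0.18 to 0.93 with shLMO2-1, -0.43 to 0.57 with shLMO2-2, -0.25 to 0.75 in the mean and -0.59 to 0.036 between the hairpins. DSC2 ran from -0.087 to 0.038 with shLMO2-2, -0.12 to 0.0071 in the mean and -0.016 to 0.13 between the hairpins. DSG2 ran from -0.013 to 0.095 with shLMO2-1, -0.079 to 0.027 with shLMO2-2 and -0.046 to 0.061 in the mean. PCDH8 with shLMO2-2 ran from -0.054 to 0.36. Between the hairpins PCDHB14 ran from -0.062 to 0.31 and PCDHGB1 from -0.088 to 0.27. Depth limits the genes of about 1 CPM or less, where a library holds 1 to 49 counts of PCDHGA7, PCDHGA12 or PCDHB14.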
